A study of Mus musculus with 39 samples.

Results

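In 7438 mouse mammary cells, 1189 estrogen receptor (ER) sites after estradiol (E2) overlapped glucocorticoid receptor (GR) sites after dexamethasone (Dex). Of these, 1108 were also called in a further ER list, whose label and name conflict. The 1108 are called shared sites here. A shared site is a site of the ER list with E2 that overlaps, by at least 1 bp, a site of the ER list labelled untreated but named for both hormones, and a site of the GR list with Dex. The 1108 are 15.5% of the 7136 ER sites with E2, and the GR sites they overlap, 1109 in number, are 9.18% of the 12084 GR sites with Dex. The members were chosen by measured calls, so their presence in the 3 lists of the rule is a description and not a result.

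ER and GR are nuclear receptors that bind DNA and regulate transcription once their hormone is present. ER recognises estrogen response elements and GR recognises glucocorticoid response elements, and either can also be found at DNA where another factor holds the chromatin open. AP-1, a dimer of Fos and Jun proteins, is known as such a factor for GR in mouse mammary cells, and the engineered Fos protein called A-Fos is known to block AP-1 by pairing with its subunits.

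Chromatin immunoprecipitation with sequencing (ChIP-seq) was done with GR or ER antibodies on 7438 cells, which carry genes for GFP-tagged GR and Cherry-tagged ER under a tetracycline-regulated promoter, and on 7438 cells that carry Afos as well. The labels do not say what Afos is. Cells of each line were untreated or received 100 nM Dex (a synthetic GR ligand), 100 nM E2 (the natural ER ligand) or both for 30 min, after tetracycline had been withdrawn in all groups to induce the fusion proteins. In 7438 each receptor and treatment had 1 list of called sites, and in 7438 Afos it had 2 replicate lists. The labels give 2 replicate samples for each receptor and treatment in 7438 too, with the list filed under replicate 1. Whether that list was called from 1 library or from both is not stated. The receptors were expressed from transgenes, and the labels give no number of clones.

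For both receptors in 7438, the list filed under untreated is named for both hormones and the list filed under Dex+E2 is named untreated. The 2 long lists, with 11982 ER and 9503 GR sites, are called the labelled-untreated lists below, and the short ones, with 373 ER and 143 GR sites, the labelled-Dex+E2 lists. Which of the names is right cannot be told apart from the labels, and the lengths are given as a measurement only. The lists with Dex alone and E2 alone carry no such conflict. Left without the labelled-untreated ER list, the rule gave 1189 sites in place of 1108. With the 2 contradictory ER lists exchanged it gave 144.

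Lists differed widely in length. In 7438 Afos they held from 35 sites (ER, untreated) to 14160 sites (GR, Dex+E2). Read totals were not used here, so depth is unknown, and each list was compared only through presence of a site and through rank within that list. Sites of 7438 were 150 bp wide and sites of 7438 Afos at least 251 bp wide. Nothing in the labels says whether replicates were separate cultures, so p-values measure the spread between these lists, which may be technical.

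The most strongly bound shared sites were picked by their mean percentile over the ER list with E2 and the GR list with Dex. They stood near the top of both lists by that choice. Strength is the percentile of a site's highest tag density within its own list. Coordinates are mm9, as the lists give them. The site with the highest mean percentile over both lists (chromosome 15, 51562433 to 51562583) reached 124 for ER with E2 and 483 for GR with Dex, both as highest tag density. In 7438 Afos the ER density there was 42.1 and 28.7 in the replicates with E2 and 81.0 and 35.8 in those with Dex+E2. The GR density was 184 and 109 with Dex and 217 and 213 with Dex+E2. The second lay on chromosome 17 (34347547 to 34347697) and reached 320 for ER with E2 and 217 for GR with Dex. Its ER density in 7438 Afos was 253 and 175 in the replicates with E2 and 190 and 86.3 in those with Dex+E2. Its GR density was 93.0 and 61.3 with Dex and 192 and 134 with Dex+E2. The next 4 were on chromosome 6 (145959048 to 145959198), chromosome 2 (164281357 to 164281507), chromosome 11 (51729608 to 51729758) and chromosome 4 (138788981 to 138789131). All 6 were called in all 8 Afos lists in which the receptor had its ligand. Densities are compared here only as identities of a site, because their scaling between lists is not stated.

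As a group, shared sites covered nearly the whole range of strength for each receptor alone. Their median percentile was 56.6 in the ER list with E2 (quartiles 31.1 and 80.3) and 62.9 in the GR list with Dex (36.2 and 84.1). The percentile of one receptor said little about that of the other, with a Spearman rho of 0.051 over the 1108 sites. Sites in the upper part of both lists numbered 407 (at or above percentile 50 in each), and 180 lay below percentile 50 in each. Another 115 stood at or above percentile 75 for ER and below 50 for GR, and 170 the other way round. These values come from the lists of the rule and are descriptive.

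**Figure D1:**
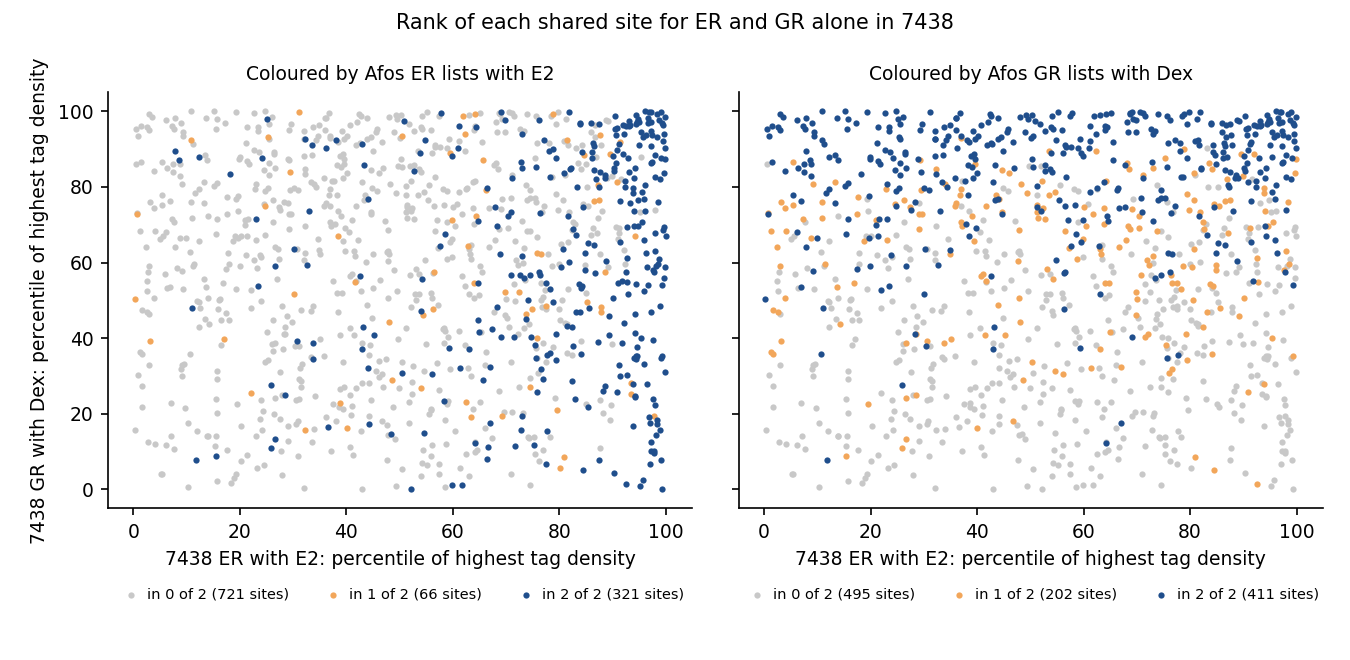
Each point is 1 of the 1108 shared sites, placed by its percentile in the 7438 ER list with E2 (x axis) and in the 7438 GR list with Dex (y axis). In the left panel colour gives presence in the 2 Afos ER lists with E2 (321 sites in both, 66 in 1, 721 in neither), and blue points gather at the right. In the right panel it gives presence in the 2 Afos GR lists with Dex (411, 202 and 495), and blue points gather at the top.

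The extremes show how unequal the receptors could be at 1 site. A site on chromosome 9 (71605321 to 71605471) was at percentile 99.4 for ER with E2, with a density of 140, and at the floor of the GR list with Dex, with a density of 10.0. In 7438 Afos it was in all 4 ER lists with E2 or Dex+E2, in neither GR list with Dex and in both GR lists with Dex+E2 (20.8 and 23.7). A site on chromosome 7 (119476048 to 119476198) had the same pattern of presence in 7438 Afos, with 129 for ER and 11.3 for GR in 7438. Its percentile was 7.75 for GR with Dex and 93.4 in the labelled-untreated GR list. A site on chromosome 4 (136291975 to 136292125) also had that pattern of presence, with 66.6 for ER and 10.4 for GR. The remaining 2 of the 5 sites that leaned most to ER differed from these. A site on chromosome 1 (36382885 to 36383035) was in both Afos ER lists with E2 and in no list with Dex or Dex+E2. A site on chromosome 15 (84111288 to 84111438) was in both ER lists with E2, in neither ER list with Dex+E2, in 1 of 2 GR lists with Dex and in both GR lists with Dex+E2.

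At the opposite end, a site on chromosome 2 (152646139 to 152646289) had a density of 321 for GR with Dex and 10.3 for ER with E2. In 7438 Afos it was in all 4 GR lists with Dex or Dex+E2, in neither ER list with E2 and in 1 of 2 ER lists with Dex+E2 (22.8). Its percentile was 2.90 in the ER list with E2 and 91.4 in the labelled-untreated ER list. Of the 5 sites that leaned most to GR, all were in the 4 GR lists and none was in an Afos ER list with E2. Of the other 4, 2 were on chromosome 3 (starts 19854059 and 21851936), 1 on chromosome 2 (start 168453410) and 1 on chromosome 16 (start 5136119).

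In the 2 long labelled-untreated lists the ranks of the receptors were tied to each other more closely. Across shared sites, the percentile in the labelled-untreated ER list had a rho of 0.69 with ER E2, 0.32 with GR Dex and 0.63 with the labelled-untreated GR list (n = 1108, 1108 and 1059). The labelled-untreated GR list had a rho of 0.82 with GR Dex and 0.29 with ER E2. Sites in the highest quartile of GR Dex strength had a median ER E2 percentile of 57.7, close to the 54.4 of the lowest quartile. In the labelled-untreated ER list the same sets stood at 89.0 and 68.8. The points of these correlations share libraries, and the ER part was used by the rule, so no p is given.

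The labelled-untreated GR list, which the rule did not use, held 1059 of the 1108 shared sites (95.6%, exact Clopper-Pearson 95% interval 94.2 to 96.7%), against 32.6% of all 7136 ER sites with E2 and 63.7% of all 12084 GR sites with Dex. Of 1895 sites of the labelled-untreated ER list that overlap GR with Dex and no ER site with E2, 95.5% were in it, so the share was not particular to shared sites. Intervals here and below cover counting error only. Shared sites that lay in it had a median percentile of 73.7, and those 1895 sites one of 76.0. The 1190 ER sites that were in both ER lists and overlapped GR only in this list had a median of 39.2 in it. The strongest shared site missing from it lay on chromosome 8 (123450308 to 123450458), with a density of 60.2 for ER with E2 and 160 for GR with Dex. That site was in all 8 Afos lists in which the receptor had its ligand, and also in 2 untreated Afos lists. The other 4 of the 5 strongest missing sites started at 85404990 on chromosome 15, 112935642 on chromosome 11, 149173411 on chromosome 5 and 88167822 on chromosome 12, and none of them was in an Afos ER list with Dex+E2. At all 5 the ER E2 and GR Dex centres were at least 136 bp apart.

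The centres of the 2 receptors' sites lay farther apart than the centres of 1 receptor's sites in 2 lists. At shared sites the median distance between the ER E2 and the GR Dex centre was 26.5 bp (quartiles 11.0 and 56.0), and 307 of 1108 pairs (27.7%) were more than 50 bp apart. From ER E2 to the labelled-untreated ER list it was 10.0 bp, with 4.51% beyond 50 bp, and from GR Dex to the labelled-untreated GR list it was 11.0 bp, with 5.64% beyond 50 bp. The rule limits these distances to under 150 bp. From ER E2 to the labelled-untreated GR list the median was 20 bp at shared sites, with 16.9% beyond 50 bp. At the 1190 ER sites with GR only in the labelled-untreated list it was 13.0 bp, with 8.74% beyond 50 bp. In 7438 each receptor and treatment had only 1 list, so the difference has no replicate check. Shared sites with centres more than 50 bp apart had a median ER E2 percentile of 66.7, against 53.0 for those within 25 bp.

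**Figure D2:**
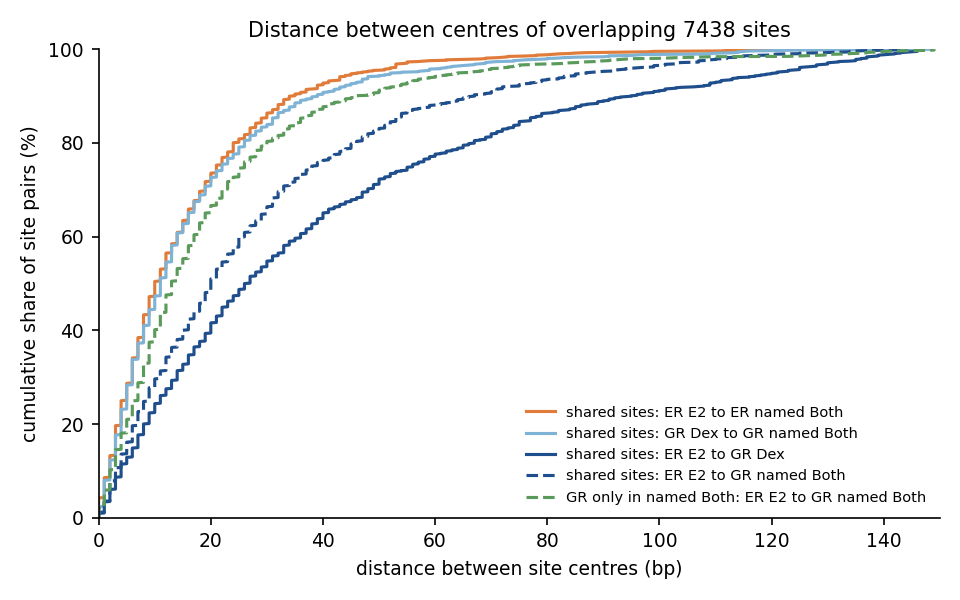
Cumulative share of overlapping site pairs (y axis, %) by the distance between their centres (x axis, bp) in 7438. "Named Both" marks the labelled-untreated lists. The curves within 1 receptor rise fastest (medians 10.0 and 11.0 bp), and the curve from ER E2 to GR Dex at shared sites rises slowest (26.5 bp).

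A minority of shared sites was also called in the 4 other 7438 lists. Of the 1108, 57 (5.14%) were in the 7438 ER list with Dex, against 1.26% of all ER sites with E2, and 111 (10.0%) were in the GR list with E2, against 2.79%. That ER list held 10149 sites, more than the 7136 with E2, while that GR list held 326. In 7438 Afos the ER lists with Dex held 61 and 41 sites. The labelled-Dex+E2 lists, which are named untreated, held 131 for ER (11.8%, against 2.54%) and 68 for GR (6.14%, against 1.14%). By label the receptors had their ligand in the last pair, and by name they had not. At least 1 of the 4 lists held 260 shared sites (23.5%, against 5.94% of all ER sites with E2), and 2 sites were in all 4. The lists with Dex for ER and with E2 for GR, whose labels and names carry no conflict, held 150 (13.5%, against 3.798%). The 260 stood at a median GR Dex percentile of 75.8, against 57.5 for the other 848.

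In 7438 Afos cells, ER was called at shared sites with E2 and at almost none of them without it. In the lists with E2 it was called at 351 sites (31.7%) in replicate 1 and 357 (32.2%) in replicate 2, against 57.9% and 51.5% of all 7136 ER sites with E2. In the lists with Dex+E2 it was called at 448 (40.4%) and 327 (29.5%), against 43.9% and 25.3%. Untreated lists held 0 and 1 shared site, against 0% and 0.0561%, and lists with Dex held 1 and 2, against 0.21% and 0.042%. The share over the 4 lists with E2 was 33.5 ± 4.79% (mean ± SD, n = 4) and that over the 4 without was 0.0902 ± 0.0737% (n = 4). The groups did not overlap, and the difference of 33.4 points was 17.4 with the contradictory 7438 lists exchanged (two-sided exact permutation test over lists, p = 0.0286, the smallest that 4 against 4 lists can give). The ER lists without E2 held only 35 to 61 sites in all, against 2564 to 6046 with E2. Shared sites were also chosen as ER sites with E2. So the contrast is not particular to shared sites. Lists of at most 61 sites could hardly have held the 327 to 448 shared sites found in the lists with E2. The separation of the groups and its p therefore followed from list length, and the test cannot tell ligand from list length.

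GR in 7438 Afos was called at more of the shared sites than ER, when each had its own ligand alone and when both hormones were given. With both hormones GR was called at most of them. With Dex it was present at 610 (55.1%) and 414 (37.4%), against 11.3% and 7.2% of all ER sites with E2, and 59.8% and 40.3% of all 12084 GR sites with Dex. With Dex+E2 it was present at 757 (68.3%) and 830 (74.9%), against 38% and 28.1% of ER sites and 60.5% and 62.2% of GR sites. Lists with E2 held 51 (4.60%) and 21 (1.90%), against 6.4% and 1.72%. Untreated lists held 35 (3.16%) and 81 (7.31%), against 0.589% and 1.49%. The share was 58.9 ± 16.6% over the 4 lists with Dex and 4.24 ± 2.33% over the 4 without (two-sided exact permutation test over lists, p = 0.0286). The GR lists without Dex held 95 to 490 sites in all, against 5136 to 14160 with Dex. The ER lists with E2 held 2564 to 6046, so the shares of GR and ER come from lists of unlike length. Shared sites were chosen as GR sites with Dex, so this contrast is not particular to them either. Apart from the longest, the lists without Dex held at most 315 sites in all. That is fewer than the 414 shared sites in the lowest list with Dex. Much of the separation was therefore bounded by list length, and the test cannot tell ligand from list length.

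With both hormones the GR share was higher than with Dex in each replicate, while the ER share was higher in 1 replicate and lower in the other. The GR share was 46.2 ± 12.5% with Dex and 71.6 ± 4.66% with Dex+E2 (n = 2 each), a difference of 25.4 percentage points, and both Dex+E2 lists were above both Dex lists. It was 13.3 points in replicate 1 alone, 37.5 in replicate 2 alone, and 13.2 over both with the contradictory 7438 lists exchanged. The ER share was 32.0 ± 0.383% with E2 and 35.0 ± 7.72% with Dex+E2, and the E2 values lay between the Dex+E2 values. With 2 against 2 lists the exact permutation test cannot go below 0.333. This exact permutation test gave p = 0.333 for GR and p = 1 for ER. The GR lists with Dex+E2 were also the longer ones, at 14160 and 10309 sites against 8873 and 5136, and the part of list length in this difference was not tested.

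**Figure D3:**
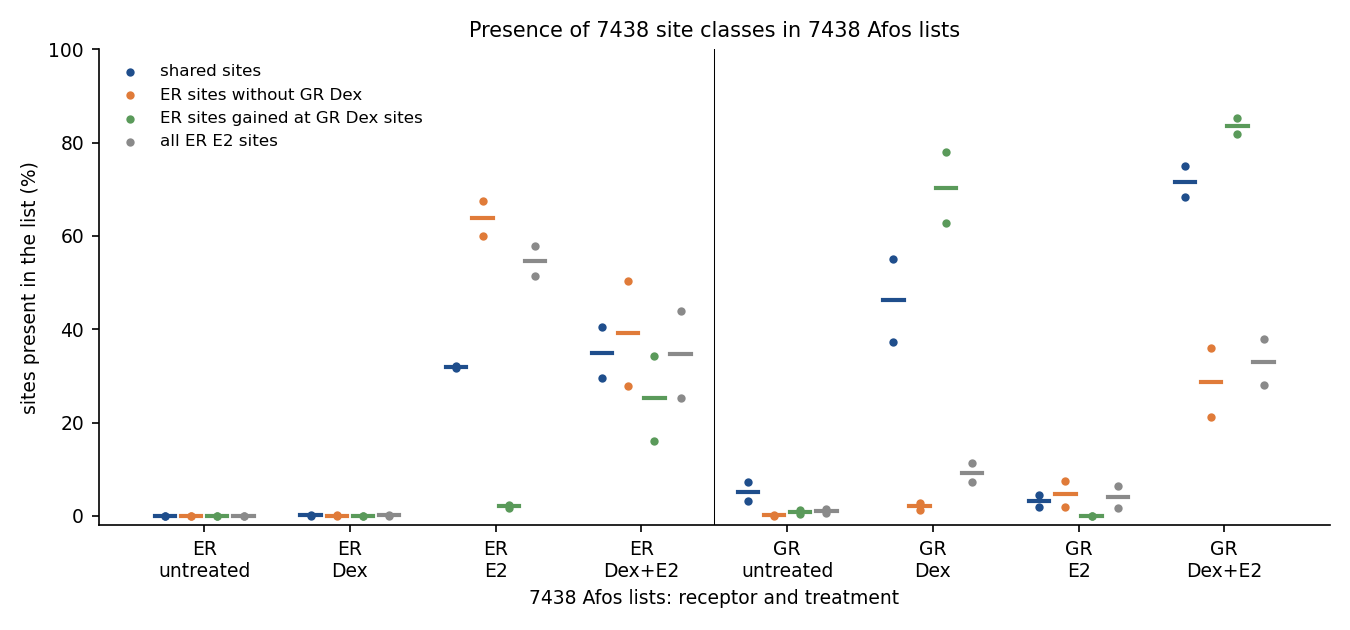
Percent of sites of each 7438 class (y axis) present in each Afos list, by receptor and treatment (x axis). Points are the 2 replicate lists and bars their mean. Shared sites lie below ER sites without GR Dex in the ER lists with E2 (31.7% and 32.2% against 67.5% and 60.1%) and are near them in the ER lists with Dex+E2.

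Read together, the Afos lists sorted shared sites into 4 sets by what each receptor did alone, counting a site when it was in at least 1 replicate list. Both receptors with their own ligand were called at 255 sites (23.0%, against 5.11% of all ER sites with E2). GR but not ER was called at 358 (32.3%, against 6.26%), ER but not GR at 132 (11.9%, against 55.4%), and neither at 363 (32.8%, against 33.3%). Since the rule required GR in 7438, the larger GR sets beside the background are partly set by the choice of sites.

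With both hormones, ER was called at 223 of the 255 sites that had both receptors alone (87.5%) and at 93 of the 132 that had only ER (70.5%). It was called at 100 of the 358 that had only GR (27.9%, interval 23.3 to 32.9%) and at 41 of the 363 that had neither (11.3%, 8.23 to 15.01%). The same shares over all ER sites with E2 in each set, shared sites included, were 87.4% of 365, 64.8% of 3950, 27.1% of 447 and 7.46% of 2374. The first and the third were close to this background, but shared sites made up 255 of the 365 and 358 of the 447. That closeness was therefore partly built in. Between same-numbered lists the last pair was 28.5% and 11.8% in replicate 1 and 24.1% and 4.78% in replicate 2. The order of these 2 sets was the same in both replicates. Over all ER sites with E2 the last pair was 27.5% and 7.75% in replicate 1 and 23.8% and 3.07% in replicate 2.

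GR with both hormones was called at 113 of the 132 sites that had only ER (85.6%, 78.4 to 91.1%) and at 146 of the 363 that had neither (40.2%, 35.1 to 45.5%). Over all ER sites with E2 in the same sets these shares were 45% of 3950 and 12.9% of 2374. Between same-numbered lists, replicate 1 gave 84.6% and 24.9% at shared sites, against 45.5% and 9.57% over all ER sites with E2. Replicate 2 gave 85.4% and 50.8%, against 30.8% and 13.5%. GR was called again at 602 of the 613 sites it held with Dex (98.2%). Over all ER sites with E2 the share was 97.7% of 812, and the 613 are part of these 812. Of the 457 shared sites with ER under Dex+E2, 452 had GR as well (98.9%, against 72.1% of 3176). Another 409 had GR without ER (36.9%) and 5 had ER without GR (0.451%). Over all ER sites with E2, 44.5% had ER under Dex+E2, 32.1% had both receptors, 8.21% had GR without ER and 12.4% had ER without GR. These shares compare sites within lists, and strength differed between the sets.

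How often a receptor was found alone in 7438 Afos followed its own strength in 7438, with the 1108 sites cut into quartiles by their percentile. From the lowest to the highest quartile of ER E2 strength, ER with E2 was present at 9.0% and 74.0% of shared sites in replicate 1, and at 7.9% and 76.2% in replicate 2. From the lowest to the highest quartile of GR Dex strength, GR with Dex was present at 11.6% and 98.6%, and at 2.5% and 92.0%. Such a rise was not particular to shared sites. From the weakest to the strongest of 5 classes, ER sites of both ER lists without GR Dex went from 44.0% to 92.2% in replicate 1. GR Dex sites without ER in those lists went from 29.5% to 98.4%. Across quartiles of the other receptor's strength the shares of shared sites moved less. ER with E2 was at 31.4% and 37.0% of sites in the lowest and highest GR Dex quartile in replicate 1, and at 33.6% and 37.3% in replicate 2. GR with Dex was at 55.9% and 59.2%, and at 39.4% and 41.2%, in the lowest and highest ER E2 quartile.

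With both hormones, each receptor was also called at more sites in the highest quartile of the other's strength. ER with Dex+E2 was present at 63.0% of shared sites in the highest GR Dex quartile and at 30.6% to 34.7% in the 3 lower ones in replicate 1. In replicate 2 the values were 50.7% and 20.9% to 24.5%. GR with Dex+E2 was present at 86.6% of sites in the highest ER E2 quartile and at 58.0% to 67.0% in the lower ones in replicate 1, and at 89.2% and 68.5% to 71.7% in replicate 2. No test over lists was made for the quartiles, and their edges were drawn from the lists of the rule.

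**Figure D4:**
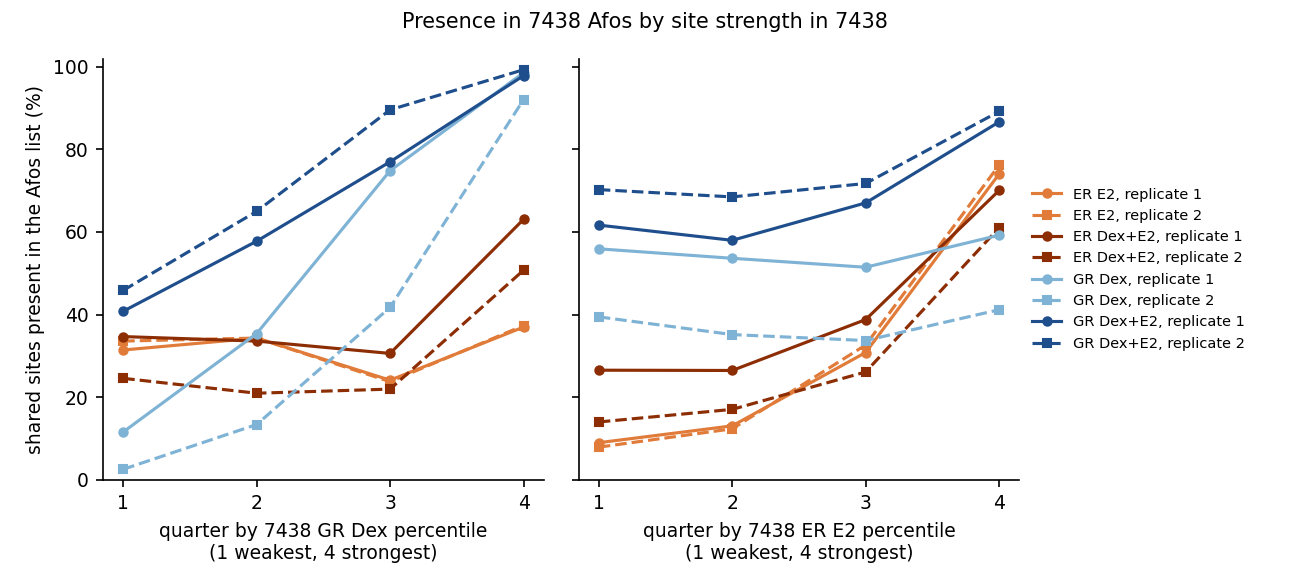
Percent of shared sites present in each Afos list (y axis) by quartile of 7438 GR Dex strength (left) or ER E2 strength (right), with 1 the weakest and 4 the strongest. Each line is 1 replicate list. The ER lists with E2 stay between 23.7% and 37.3% across GR strength, while the ER lists with Dex+E2 rise in quartile 4 (63.0% and 50.7%).

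Under E2 alone, ER in 7438 Afos was called at a smaller share of shared sites than of ER sites without GR Dex, in both replicates. The comparison set was the 5191 ER sites that were in both ER lists of the rule and overlapped no GR site with Dex. It was present at 67.5% and 60.1% in the 2 ER lists with E2, so shared sites were lower by 35.9 and 27.9 percentage points. In the ER lists with Dex+E2 they were lower by 9.83 points in replicate 1 and higher by 1.58 points in replicate 2. Over the 4 lists the mean difference was -17.99 points (two-sided exact sign-flip permutation test over lists, p = 0.25, with 3 of 4 lists lower), which did not pass the threshold of 0.05. With the contradictory lists exchanged it was -3.74 points (same exact test, p = 0.875). The smallest p that 4 lists allow is 0.125.

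The gap under E2 alone was present in every class of ER strength. In the weakest of 5 classes of the 7438 ER list with E2, 6.17% and 5.56% of shared sites were in the Afos ER lists with E2, against 44.0% and 32.9% of the comparison set. In the strongest class the shares were 73.0% and 75.4% against 92.2% and 91.4%. With the comparison set weighted to the strength of the shared sites, the differences in the E2 lists were -36.9 and -29.1 points and those in the Dex+E2 lists -11.0 and 0.27 points.

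The comparison set was itself mixed. Its 1190 sites with GR in the labelled-untreated GR list were present at 79.3% and 76.0% in the ER lists with E2 and at 79.5% and 62.2% with Dex+E2. Its 4001 sites with GR in neither GR list were at 64.0% and 55.4%, and at 41.6% and 17.7%. Shared sites, at 31.7% and 32.2%, were below both subsets with E2. With Dex+E2 their 40.4% was below both subsets in replicate 1, and their 29.5% was between them in replicate 2.

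**Figure D5:**
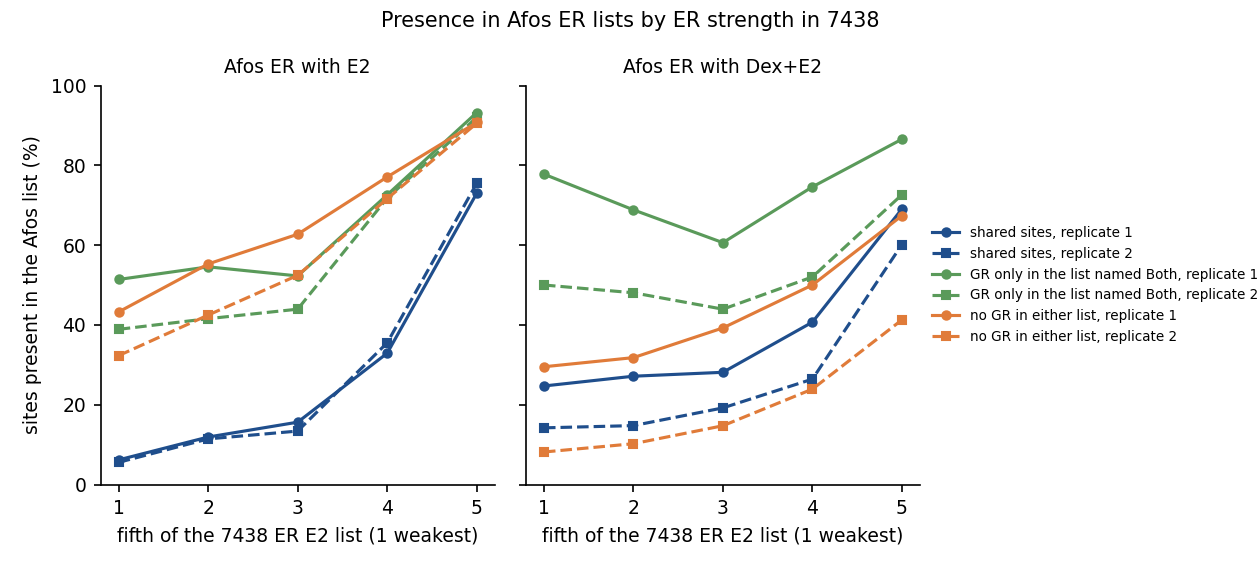
Percent of sites present in the Afos ER lists (y axis) by class of strength in the 7438 ER list with E2 (x axis, 1 weakest, 5 strongest), for E2 (left) and Dex+E2 (right). Shared sites lie below both sets of ER sites without GR Dex in every class with E2, from 6.17% to 73.0% in replicate 1. "Named Both" is the labelled-untreated GR list.

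The GR sites at shared sites were also called in smaller shares under Dex alone than GR sites of the same strength without ER. Sites without ER are here the 8988 GR Dex sites that overlapped neither the ER list with E2 nor the labelled-untreated ER list. GR Dex sites at shared sites were present at 55.1% and 37.3% in the Afos GR lists with Dex, and those 8988 at 56.7% and 36.1%. The shared ones were stronger, with a median percentile of 62.9 against 43.3. Within each of 5 classes of GR Dex strength the shared ones had the smaller share, from 8.03% against 29.5% in the weakest class to 97.3% against 98.4% in the strongest in replicate 1. In replicate 2 the same classes gave 2.19% against 9.90% and 88.2% against 92.5%. In the GR lists with Dex+E2 the weakest class gave 38.0% against 32.5% in replicate 1 and 43.8% against 26.9% in replicate 2. In the 3 weaker classes the shared sites had the larger share in both of these lists, and in the strongest class the shares were 95.8% against 95.8% and 97.9% against 98.2%. The weakest class held 137 GR sites at shared sites and 2131 without ER. No test over lists was made, since 2 lists a treatment could not pass the threshold.

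Another set with GR Dex was the 1895 sites of the labelled-untreated ER list described above that overlap no ER site with E2, called gained sites here. ER with E2 in 7438 Afos was present at 2.43% and 1.74% of them, so shared sites were higher by 29.3 and 30.5 points. With Dex+E2 shared sites were higher by 6.13 and 13.4 points, against 34.3% and 16.1% of gained sites. The mean over 4 lists was 19.8 points. Shared sites were chosen for an ER site with E2 in 7438 and gained sites for having none, so these differences are a description with no test. Gained sites were weaker in the labelled-untreated ER list, with a median percentile of 42.3 against 79.2. Weighted to the strength of the shared sites there, the mean fell to 6.93 points, and the Dex+E2 lists gave -18.8 and -8.02 points.

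For GR the shared sites were lower than the gained ones in all 4 Afos lists. The differences were -22.9 and -25.3 points with Dex and -13.5 and -10.3 points with Dex+E2, with a mean of -18.01 points (two-sided exact sign-flip permutation test over lists, p = 0.125, with 4 of 4 lists lower). Gained sites had a median GR Dex percentile of 77.9 against 62.9 at shared sites. Within classes of strength in the labelled-untreated ER list, not of GR Dex strength, the mean difference was -26.5 points. The lists gave -30.1 and -34.8 with Dex and -23.4 and -17.8 with Dex+E2. Within 5 classes of GR Dex strength, the GR sites at shared sites had the smaller share in every class and list. With Dex in replicate 1 these shares were 8.03% against 22.4% in the weakest class and 97.3% against 98.7% in the strongest. The direction of the mean difference over the 4 lists turned with the 2 contradictory 7438 lists exchanged, to 18.9 points, when the sets held other sites.

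Counting all 8 Afos lists in which the receptor had its ligand, 131 shared sites (11.8%, against 2.37% of all ER sites with E2) were in all 8 and 216 (19.5%, against 28.4%) were in none. The strongest of the 216 lay on chromosome 15 (61378246 to 61378396), at percentile 83.2 for ER with E2 and 90.2 for GR with Dex. Its 7438 densities were 34.6 for ER with E2, 73.4 for GR with Dex, 44.3 in the labelled-untreated ER list and 52.5 in the labelled-untreated GR list. Both receptors' centres were at the same position there. The other 4 named by the rule started at 157956459 and 168284212 on chromosome 2, at 43747112 on chromosome 11 and at 26316645 on chromosome 14.

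The 848 shared sites in none of the 4 other 7438 lists were also looked at alone. ER was called at 32.7% of them in each list with E2, and at 43.6% and 31.2% with Dex+E2. GR was called at 49.8% and 34.2% with Dex, and at 67.0% and 72.8% with Dex+E2. Among the 958 in neither of the 2 lists without conflict, ER was called at 30.6% and 31.0% with E2 and at 40.3% and 28.8% with Dex+E2, and GR at 52.6% and 35.1% with Dex and at 67.3% and 73.6% with Dex+E2. Over all ER sites with E2, ER was at 57.9% and 51.5% with E2 and at 43.9% and 25.3% with Dex+E2. GR was at 11.3% and 7.2% of them with Dex and at 38% and 28.1% with Dex+E2. Of all GR sites with Dex, 59.8% and 40.3% had GR with Dex. The 260 sites had more GR with Dex (72.3% and 47.7%) and less ER with Dex+E2 (30.0% and 23.8%) than the 848. They were also stronger for GR (median GR Dex percentile 75.8 against 57.5), and the part of strength was not tested. Of all 1108, 88 (7.94%, against 1.64%) were in an untreated Afos list of either receptor.

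Shared sites lay on all 20 chromosomes that held ER sites with E2. Their share of the ER sites ran from 10.8% on chromosome 7 (45 of 417) to 18.8% on chromosome 13 (46 of 245). Chromosome 11 had the most, 101 of 680. Another shared site lay within 10 kb of 199 of them (17.96%), and another ER site with E2 within 10 kb of 506 (45.7%), against 40.2% for the ER sites without GR Dex. Counting neighbours within 10 kb once left 1004.

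The edge of the rule was narrow. The smallest overlap of a shared site with a GR Dex site was 3 bp, found at 3 sites. They started at 112935642 of chromosome 11 (ER percentile 84.8, GR percentile 59.4), at 86225981 of chromosome 12 (54.2 for ER, 7.07 for GR) and at 124636791 of chromosome 8 (26.1 for ER, 98.4 for GR). Just outside, 2 ER sites touched a GR Dex site without overlap. The first spanned 9120676 to 9120826 of chromosome 12 (percentiles 76.8 for ER and 92.6 for GR), and the other 96338211 to 96338361 of chromosome 8 (31.9 and 47.9). Overlaps of at most 15 bp numbered 28, and gaps of at most 15 bp numbered 12. The median overlap was 123 bp. A GR Dex centre lay within 1 kb of 400 of the 5191 ER sites of the comparison set.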

How the data were processed

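Lists of called sites were used for 24 of 39 samples, 8 from 7438 and 16 from 7438 Afos. The other 15 were not analysed. The submitters' processing notes name mm9 and CASAVA 1.8. How sites were called and against which control is not given in the sources used here. Per the file headers, each site has a highest and an average tag density, a signal whose scaling is not stated. The authors deposited a score for each site, a z-score per the file headers. The 7438 Afos lists carry a deposited p-value, not used in any result. Depth is unknown. No 7438 site had a density under 10 or a z-score under 15.

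Sites were matched by overlap of at least 1 bp. The percentile is the rank of the highest density within a list. Shares carry exact binomial 95% intervals. Lists, not sites, were the units of the exact permutation tests (threshold 0.05), whose code was checked on simulated data. Members, comparison sets and tests were chosen with earlier results of these data known. Sites named are the 6 of highest mean percentile over ER E2 and GR Dex, and the 5 most extreme for ER over GR, for GR over ER, in no Afos ligand list, and absent from the labelled-untreated GR list. Alternatives were other limits on density, list length and overlap, exchanged lists, replicates left out and a replicate block. Chromosome 18 was left out of the named sites. Genes, motifs and sequences at the sites were not analysed here. Python 3.11.15, NumPy 2.4.6, SciPy 1.17.1, pandas 2.3.3 and matplotlib 3.10.9 were used.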

Additional observations from a re-analysis of the deposited data

How the results depend on the processing

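Of 108 recomputed values over 9 results, 93 kept their direction and their side of the threshold or stayed near the reported value. Where the smallest p of the exact permutation test was 0.125 or 0.333, the side could not change, and only a turn of direction counted. The 93 therefore say little about sizes, as with the gap to ER sites without GR Dex, which moved from -17.99 to -3.74 points. The number of shared sites was 394 when each 7438 list was halved to its denser sites, 696 with equal numbers of sites from each list, and 144 with the contradictory 7438 lists exchanged. The share in the labelled-untreated GR list was 98.0% with equal numbers, and 27.8% in the exchanged list. With the lists exchanged, the difference in ER share between Dex+E2 and E2 turned to -6.60 points, and that in GR share between shared and gained sites to 18.9 points. The ER ligand contrast fell to 17.4 points and the gap to ER sites without GR Dex to -3.74 points. Without either replicate, the ER difference between Dex+E2 and E2 ran from -2.71 to 8.75 points and the GR difference between Dex+E2 and Dex from 13.3 to 37.5 points. The ligand contrasts then ran from 30.7 to 36.01 points for ER and from 51.5 to 57.8 for GR, where 2 against 2 lists cannot pass.

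With same-numbered lists as a replicate block, the ligand contrasts kept their sizes, 33.4 points for ER and 54.7 for GR, with p = 0.0556 by exact permutation, the smallest this block allows. The numbers are not stated to pair lists, and the deviations of same-numbered lists correlated at 0.116 for ER and -0.106 for GR. Crossing the numbers of the GR Dex+E2 lists, added after the data were seen, gave 0 calls, as did the block itself, with the GR contrast at 54.7 points. Also added then were leaving the labelled-untreated ER list out of the rule, removing sites in the 4 other 7438 lists, and strength classes. The unknown depth limits what absence from a list means.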
